A study of Mus musculus with 400 samples.

Results

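The genes described here are the 7 that write, maintain and remove cytosine methylation in mouse DNA, namely Dnmt1, Uhrf1, Dnmt3a, Dnmt3b, Tet1, Tet2 and Tet3. They were chosen by name, and each has 1 row among the 33496 gene rows of the deposited count table. Their mRNA was followed in 380 of 400 single cells sorted as Lgr5-high from mouse small intestine, those with at least 10000 counts. Lgr5-high cells are the stem cells of the crypt base, which divide and renew the gut lining, and the series title concerns a slowly dividing part of them that has Mex3a mRNA.

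All cells form 1 group. Per the labels they came from Lgr5 GFP/+ mice, in which the Lgr5 locus also drives EGFP and a tamoxifen-dependent Cre recombinase, so the sort rests on activity of that locus. Crypts were taken from duodenum and jejunum of mice matched for age and sex, with no age, animal or number of animals named for a cell. DAPI was used to leave out dead cells before sorting, and single cells were caught on a Fluidigm C1 chip of high-throughput format for SMARTer cDNA synthesis. The labels' protocols also name Cyp1a1::H2B-YFP mice and tamoxifen for lineage tracing, without saying that either applies to these cells. The group therefore counts as 1 sample, no statistical test was possible between cells, and no p-value is given. The spread shown instead is the standard deviation (SD) or range over 10 sets of 36 to 39 kept cells each, numbered in the sample titles. They are called library sets here. What the number stands for is not stated in the titles, so the sets are not counted as replicates.

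Kept cells had 10766 to 70133 counts with a median of 32112, a median of 8616 genes with a count, and at most 2.47% of counts from the mitochondrial genome. The same 40 barcode numbers occur in each of the 10 sets, and no 2 cells had identical columns. Stem cell mRNAs were found widely, since 9 of 12 stem cell markers had a count in at least 90% of cells, with Lgr5 and Olfm4 each at 97.9% and Smoc2 at 100%. No count in the table exceeds 36, and the gene with the highest mean count had a mean of 30.3 with a variance of 3.41. Differences between cells are thus compressed for abundant genes. The 7 genes lie below that range, with mean counts of 0.684 to 3.82 per cell.

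DNA methylation in mammals sits mostly on cytosines followed by guanine (CpG). Each round of DNA replication leaves the new strand unmethylated. UHRF1 binds such half-methylated CpG and brings the maintenance methyltransferase DNMT1 to it, whereas DNMT3A and DNMT3B can methylate sites that carried no methyl group on either strand. TET1, TET2 and TET3 oxidize methylcytosine, the first step of active demethylation. In the intestine of mice, loss of Dnmt1 is known to disturb the crypt, and methylation patterns change between stem and differentiated cells at regulatory regions.

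Start windows of the maintenance genes are shown because this pair was higher in cells with a high S phase score (below). Motifs of E2F factors, which control many replication genes, are commonly found at promoters of such genes. The RefSeq table of build GRCm38.p6 gave 12 start windows for the 7 genes. A window is the 250 bases before an annotated start. The motif searched was any of TTTGGCGC, TTTCCCGC, TTTGCCGC or TTTCGCGC on both strands. It was found in 1 of 3 Dnmt1 windows (chr9:20952624-20952873, minus strand) and in 1 of 2 Uhrf1 windows (chr17:56304063-56304312, plus strand). Both are printed 5′ to 3′ along the gene, with the match in capitals.
Dnmt1 window 3: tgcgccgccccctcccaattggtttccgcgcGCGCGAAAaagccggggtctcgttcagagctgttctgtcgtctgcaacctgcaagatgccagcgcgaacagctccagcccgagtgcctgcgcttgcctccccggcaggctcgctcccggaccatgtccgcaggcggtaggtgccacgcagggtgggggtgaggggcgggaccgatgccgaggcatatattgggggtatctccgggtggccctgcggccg
Uhrf1 window 2: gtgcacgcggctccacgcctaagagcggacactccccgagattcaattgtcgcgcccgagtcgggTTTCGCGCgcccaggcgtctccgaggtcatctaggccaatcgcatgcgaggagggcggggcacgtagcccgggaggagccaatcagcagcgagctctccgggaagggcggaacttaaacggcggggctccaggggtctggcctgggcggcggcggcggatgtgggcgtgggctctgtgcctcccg
The match begins at base 32 of the Dnmt1 window, where TTTCGCGC lies on the other strand, and at base 66 of the Uhrf1 window, where it reads as printed. The Dnmt1 window holds 26 CpG and the Uhrf1 window 30, with a median of 6 over all 32851 windows in the table. Such CpG content is not particular to the pair, since windows without a match held 51 in Tet2, 38 and 40 in Dnmt3a and 21 in Dnmt3b. The other windows of Dnmt1 held 2 and 7. Both windows lie inside the annotated extent of their gene, before a start downstream of the outermost one. They can thus hold transcribed bases and are not promoter alone. No window of Dnmt3a, Dnmt3b, Tet1, Tet2 or Tet3 held these letters. Over all windows 1.86% held a match, and by gene 2.16% of 27025 genes had one in any of their windows. Each of the searched words holds CG, and 27.3% of all windows had 15 CpG or more. The share with a match among such windows was not counted. A match is a description of the letters and does not show binding, and control of these genes by E2F factors was not tested.

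Dnmt1 (ENSMUSG00000004099.15, chr9:20907209-20959888 of GRCm38, minus strand) encodes the maintenance methyltransferase. It had a count in 84.5% of the 380 cells (exact Clopper-Pearson 95% interval 80.4 to 87.97%). Its summed level was 119.3 CPM, the usual count scaled to the total counts of the same cells, with a mean of 118.6 ± 20.3 CPM over the sets (SD, n = 10 library sets). The lowest set was at 78.8 CPM, the median at 123.2 and the highest at 143.8. The interval here and those below cover counting error only, since it is not given whether molecules were tagged before amplification.

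Uhrf1 (ENSMUSG00000001228.14, chr17:56303321-56323486, plus strand), which encodes the partner that finds half-methylated CpG, was found in 62.1% of cells (57.02 to 67.003%). It averaged 72.7 ± 29.9 CPM (SD, n = 10 library sets). The lowest set had 37.4 CPM, the median 70.4 and the highest 129.8, a wider relative spread than that of Dnmt1. Both mRNAs were found together in 55% of cells, Dnmt1 alone in 29.5%, Uhrf1 alone in 7.11% and neither in 8.42%.

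Dnmt3a (ENSMUSG00000020661.15, chr12:3806007-3914443, plus strand) encodes a de novo methyltransferase. It was found in 82.9% of cells (78.7 to 86.5%), at 92.2 ± 16.4 CPM over the sets (SD, n = 10 library sets), with a lowest set of 69.4, a median of 88.04 and a highest of 121.6 CPM. Dnmt3b (ENSMUSG00000027478.15, chr2:153649450-153687730, plus strand), which encodes the other, was found in 31.8% of cells (27.2 to 36.8%), at 21.5 ± 10.4 CPM (SD, n = 10 library sets). Its sets ran from 7.21 to 43.6 CPM with a median of 20.7, and none had as many CPM as the lowest set of Dnmt3a, on a scale that does not allow for length. An exon of Dnmt3a overlaps Dnmt3aos on the other strand, and without a stated use of strand the counts of that pair cannot be told apart.

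Among the oxidases, Tet3 (ENSMUSG00000034832.15, chr6:83362373-83459084, minus strand) had the highest level, both as CPM and per kb of exon (below). Tet3 was found in 70% of cells (65.1 to 74.6%), at 71.7 ± 20.7 CPM (SD, n = 10 library sets), from 43.6 to 103.03 CPM with a median of 66.6. Tet1 (ENSMUSG00000047146.15, chr10:62804570-62908996, minus strand) was found in 47.1% of cells (41.99 to 52.3%), at 32.996 ± 8.80 CPM (SD, n = 10 library sets), from 22.6 to 49.3 CPM with a median of 30.1. Tet2 (ENSMUSG00000040943.12, chr3:133463679-133545139, minus strand) was found in 36.6% of cells (31.7 to 41.6%), at 21.6 ± 11.8 CPM (SD, n = 10 library sets), from 5.41 to 39.3 CPM with a median of 24.4. As CPM the sets of Tet3 and Tet2 did not overlap, while the highest set of Tet1 lay above the lowest of Tet3. An exon of Tet2 overlaps Gm42567 on the other strand, with the same limit as for Dnmt3a.

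**Figure D1:**
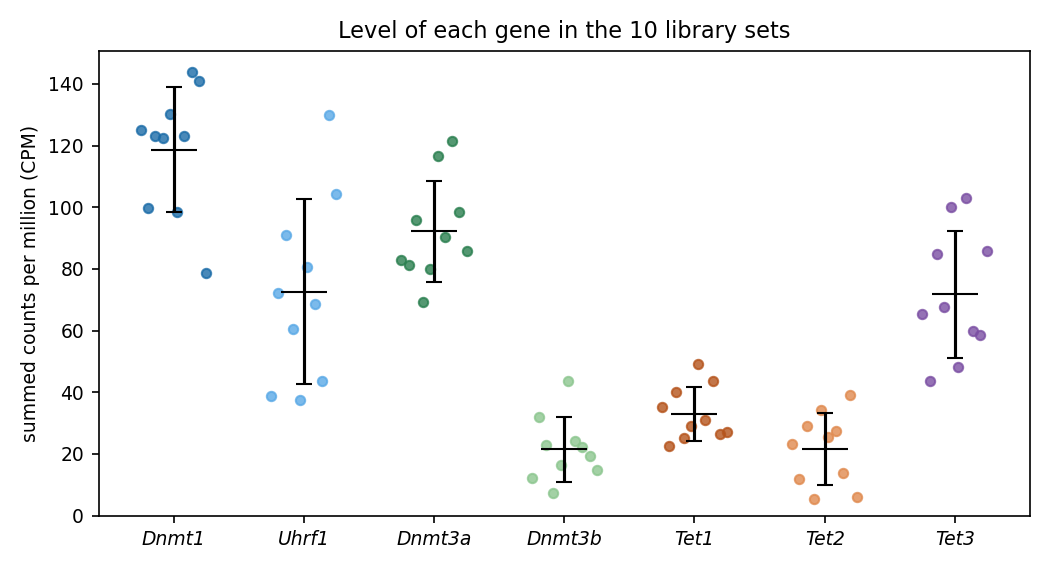
Level of each gene in the 10 library sets, as CPM, not scaled for gene length. Each point is 1 set of 36 to 39 cells, and the black bars give the mean ± SD over sets. Dnmt1, Dnmt3a, Uhrf1 and Tet3 averaged 71.7 CPM or more, and Tet1, Tet2 and Dnmt3b 32.996 CPM or less.

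No cell type lacking these genes was measured alongside, so the shares were set beside 18 markers of immune, stromal and endothelial cells, which a stem cell should not express. Those markers had a count in 0.263% (Cd8a) to 44.5% (Pecam1) of the same cells, with a median of 13.9%. The shares of Dnmt1, Dnmt3a, Tet3 and Uhrf1 lay well above the highest of them, and that of Tet1 just above. The shares of Dnmt3b and Tet2 were not higher than that of Pecam1, so a count of Dnmt3b or Tet2 in 1 cell is not read here as expression by that cell. After thinning to 19169 counts, in the 90% of kept cells that reach this depth, the shares were 76.9% for Dnmt1, 54.4% for Uhrf1, 71.9% for Dnmt3a, 24.4% for Dnmt3b, 35.1% for Tet1, 26.4% for Tet2 and 59.98% for Tet3. At that depth Pecam1 was found in 31.8%, and the order of the 7 genes stayed as at full depth.

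Longer mRNAs can give more fragments, so levels were compared between genes per kb of merged exons. On this scale Uhrf1 had 17.0 CPM per kb and Dnmt1 16.2, and Uhrf1 was above Dnmt1 in 5 of 10 sets, so their order does not exceed the spread. Scaled this way the maintenance pair stood above the others, although unscaled Uhrf1 (72.6 CPM) lay below Dnmt3a (91.9 CPM) and close to Tet3 (73.1 CPM). Per kb, Dnmt1 exceeded Dnmt3a (5.52 CPM per kb) in 10 of 10 sets. Dnmt3a exceeded Tet3 (4.38 CPM per kb) in 8 of 10 sets. Tet3 exceeded Dnmt3b (4.18 CPM per kb) in 6 of 10, with a mean difference of 0.09 ± 2.79 CPM per kb (SD, n = 10 library sets), which is within the spread. Dnmt3b exceeded Tet1 (2.12 CPM per kb) in 9 of 10 sets, and Tet1 exceeded Tet2 (1.32 CPM per kb) in 8 of 10. Dnmt3b, with merged exons of 5106 bases, thus ranked next to Tet3, whose exons span 16695 bases, although its level was lower before scaling by length. Whether coverage in this library type grows with length was not tested, and the order per kb holds only if it does. Merged exons join all annotated transcripts of a gene, so their length is not that of 1 mRNA.

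Counts were uneven from cell to cell. Uhrf1 had no count in 37.9% of cells, where an even spread of its counts over cells by depth gives 12.4%, and it had at least 3 counts in 33.4%. Its variance over mean was 3.73, above the 90th percentile of 3.55 for the 10475 genes with mean counts of 0.5 to 5. Dnmt1 had no count in 15.5% of cells (4.08% if even) and had at least 3 counts in 55.3%. The variance over mean of the other 6 genes was 2.69 to 3.17, around the median of 2.89 for such genes. Dnmt3b had no count in 68.2% of cells and reached 9 counts in its highest cell. In 28.2% of cells 4 of the 7 were found, in 25% of cells 5, in 18.2% 3 and in 14.5% 6, with all 7 in 9 cells and none in 2.

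**Figure D2:**
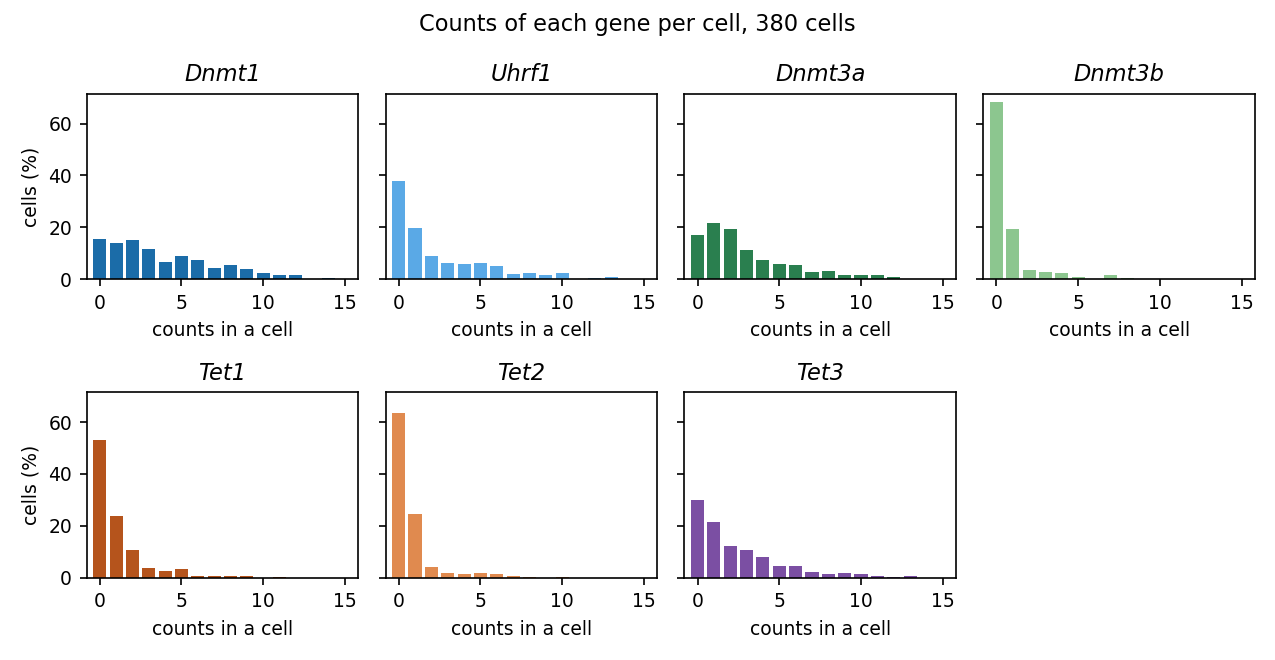
Percent of the 380 cells (vertical axis) at each count (horizontal axis) for each gene, with 1 panel a gene. Uhrf1 combines 37.9% of cells at 0 with a tail to 13 counts, whereas Dnmt1 has 15.5% at 0 and a tail to 15.

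The maintenance pair was higher in cells with more mRNA of DNA replication genes. Each cell was scored by the mean of log2(1 + count) over 40 S phase genes at the thinned depth. Uhrf1 belongs to that common list and was left out of it, as were Hells and Cdca7. The cells that reach this depth were then cut into tertiles (3 groups of near equal size) within each library set, and levels were compared as summed CPM, called higher or lower at 1.5-fold or more. In the highest tertile of the score (110 cells) Uhrf1 was 2.77-fold and Dnmt1 1.86-fold the level of the lowest tertile (110 cells). Of all 17172 genes compared, 7.2% were at least 1.5-fold higher, and 27.8% at least 1.5-fold lower. Of the 7 genes 2 were higher and 3 lower, and their median log2 ratio was 0.11, where that of all genes was -0.05.

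Uhrf1 had 44.6 CPM in the lowest, 50.1 in the middle and 123.8 in the highest tertile. The sets spanned 59.2 to 200.3 CPM in the highest tertile and 11.5 to 112.2 CPM in the lowest, and these ranges overlap. Within sets the direction did not vary. The log2 ratio of highest over lowest tertile was 1.47 (exact binomial 95% interval of the counts 1.21 to 1.74) with an SD over sets of 0.64, and it ran from 0.55 to 2.52 with a median of 1.48, above 0 in 10 of 10 sets. It ranked 56 from the top of 17172 genes. At equal depth Uhrf1 was found in 75.99% of the highest tertile and 42.8% of the lowest.

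Dnmt1 had 84.2 CPM in the lowest, 110.6 in the middle and 156.8 in the highest tertile. The sets spanned 119.6 to 210.6 CPM in the highest tertile and started from 53.01 CPM in the lowest, where the highest set lay 1.39 CPM above the lowest set of the highest tertile. The log2 ratio was 0.90 (0.70 to 1.10) with an SD over sets of 0.41, from 0.20 to 1.67 with a median of 0.93, also above 0 in 10 of 10 sets, and it ranked 413 of 17172 genes. At equal depth Dnmt1 was found in 87.4% of the highest tertile and 69.6% of the lowest. The ratio of Uhrf1 exceeded that of Dnmt1 in 7 of 10 sets, by a mean of 0.60 ± 0.80 on the log2 scale (SD, n = 10 library sets). The order of the pair thus varied between sets. That SD is not the error of the mean, and the difference in size between the pair was not tested. Uhrf1 differed mainly between the middle and the highest tertile, and Dnmt1 at both steps.

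Neither de novo enzyme was called higher. Dnmt3a had 96.9 CPM in the highest tertile and 86.7 CPM in the lowest, a log2 ratio of 0.16 with an SD over sets of 0.62, above 0 in 6 of 10 sets. Dnmt3b had 16.1 CPM in the highest tertile and 29.7 CPM in the lowest. Its log2 ratio was -0.88 (-1.35 to -0.42) with an SD over sets of 1.30, below 0 in 8 of 10 sets, and without library set 8 it was -0.56, short of 1.5-fold, as it was with a split at the median (-0.47). Dnmt3b thus belongs to the 27.8% of all genes that were lower.

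Tet1 had 24.3 CPM in the highest tertile and 37.6 CPM in the lowest, a log2 ratio of -0.63 with an SD over sets of 0.61. Tet2 had 15.6 CPM in the highest tertile and 23.7 CPM in the lowest, a log2 ratio of -0.60 with an SD over sets of 1.19. Both sit close to the 1.5-fold limit, a log2 ratio of 0.58 in size, and without library set 5 both fell short of it, at -0.52 for Tet1 and -0.49 for Tet2. Leaving out set 10 also did so for Tet1 (-0.55), and leaving out set 1, 3, 6 or 8 for Tet2 (-0.50, -0.56, -0.40 and -0.55). Tet3 had 71.9 CPM in the highest tertile and 66.4 CPM in the lowest, a log2 ratio of 0.11 with an SD over sets of 0.73.

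The tertiles of the S phase score also differed in other respects. Median totals were 36060 counts in the highest tertile and 31599 in the lowest, and at equal depth the highest tertile had 6892 genes with a count and the lowest 7245. Summed over 4 endothelial markers the level was 28.4 CPM in the highest tertile (9.4 to 50.7 over sets) and 87.8 CPM in the lowest (44.6 to 134.6), with 0 of 4 markers above 0 on the log2 ratio. Stromal markers summed to 14.1 CPM in the highest tertile and 29.7 CPM in the lowest, with 0 of 3 measured markers above 0. Immune markers summed to 71.4 CPM in the highest tertile, where Cd8a and Cd79a were at 0, and 82.5 CPM in the lowest, with 1 of 4 measured markers above 0. The part of these differences in the gene levels was not tested. Without the tertile of cells with the most genes, a choice made after seeing the data, the log2 ratio was -0.04 for Tet1 and 0.15 for Tet2. With that setting 1 of the 7 genes, Dnmt3b, remained lower. Of the cells, 79 had a score within 0.1 SD of a boundary between tertiles, so the tertiles are ranges of a continuous score and not cell types.

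**Figure D3:**
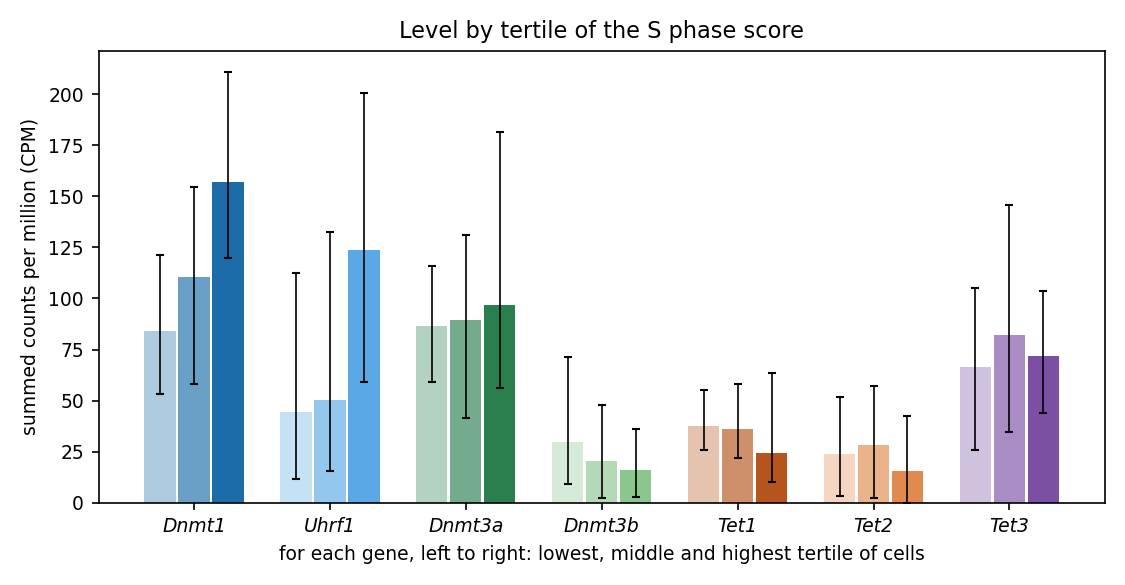
Summed CPM of each gene in the lowest, middle and highest tertile of the S phase score, left to right and light to dark. Bars are all cells of a tertile and whiskers the range over the 10 library sets. Uhrf1 and Dnmt1 are highest in the highest tertile (123.8 and 156.8 CPM), while Dnmt3a and Tet3 differ little.

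A score of 50 G2 and M phase genes gave no gene of the 7 at 1.5-fold higher, where 8.58% of all genes were, and 2 lower, where 32.5% were. Uhrf1 had 54.8 CPM in the highest tertile of that score and 85.1 CPM in the lowest, a log2 ratio of -0.64 with an SD over sets of 0.93, above 0 in 3 of 10 sets. It fell short of 1.5-fold when library set 5, 7 or 9 was left out (-0.56, -0.51 and -0.50), and with a split at the median (-0.49). Dnmt1 had 109.8 CPM in the highest tertile and 123.2 CPM in the lowest, a log2 ratio of -0.17. Tet1 had 21.9 CPM in the highest tertile and 43.004 CPM in the lowest, a log2 ratio of -0.97 with an SD over sets of 1.51, and it was 0.45 without the tertile of cells with the most genes. Without set 7 or without set 9, Tet2 also passed 1.5-fold lower, at -0.70 and -0.66, against -0.43 with all sets. Dnmt3a (-0.29), Dnmt3b (0.25) and Tet3 (-0.06) did not reach 1.5-fold. Endothelial markers summed to 31.6 CPM in the highest tertile and 87.5 CPM in the lowest, stromal markers to 11.5 CPM in the highest and 36.7 CPM in the lowest (0 of 3 above 0), and median genes at equal depth were 6785 in the highest and 7397 in the lowest.

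Ranking cells by the S score minus the G2 and M score within a set contrasts cells rich in replication mRNA with cells rich in mitosis mRNA. Here totals (medians of 32644.5 in the highest and 33612.5 in the lowest tertile), genes at equal depth (6959 in the highest, 6848 in the lowest) and endothelial markers (48.5 CPM in the highest, 48.97 CPM in the lowest) lay close together. Other marker lists were higher in the highest tertile. Stromal markers summed to 26.2 CPM in the highest tertile and 18.7 CPM in the lowest (3 of 3 above 0), and immune markers to 82.05 CPM in the highest and 65.3 CPM in the lowest (3 of 4 above 0). Tuft cell markers summed to 183.6 CPM in the highest tertile and 144.8 CPM in the lowest (5 of 5 above 0), and Paneth cell markers to 1480.2 CPM in the highest and 1323 CPM in the lowest (8 of 8 above 0). The part of these marker differences in the gene levels was not tested. Uhrf1 had 116.7 CPM in the highest tertile and 41.1 CPM in the lowest, a log2 ratio of 1.504 (1.24 to 1.78) with an SD over sets of 0.89, above 0 in 10 of 10 sets. It lay in the top 0.619% of 17122 genes. Dnmt1 had 149.5 CPM in the highest tertile and 91.6 CPM in the lowest, a log2 ratio of 0.71 (0.51 to 0.90) with an SD over sets of 0.44, above 0 in 9 of 10 sets. These 2 of 7 genes were at least 1.5-fold higher, against 10.9% of all genes, and with cells split at the median Dnmt1 fell short of that, at 0.45.

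Dnmt3b was the 1 gene at least 1.5-fold lower, against 5.47% of all genes. It had 14.6 CPM in the highest tertile and 28.2 CPM in the lowest, a log2 ratio of -0.94 (-1.45 to -0.46) with an SD over sets of 1.22, below 0 in 9 of 10 sets. With cells split at the median it was -0.47, short of 1.5-fold. It was found at equal depth in 18.9% of the highest tertile and 27.4% of the lowest, and the sets spanned 0 to 28.9 CPM in the highest and 12.2 to 62.98 CPM in the lowest. Dnmt3a (0.33), Tet1 (0.27), Tet3 (0.11) and Tet2 (0.02) did not reach 1.5-fold, each with an SD over sets of at least 0.76.

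**Figure D4:**
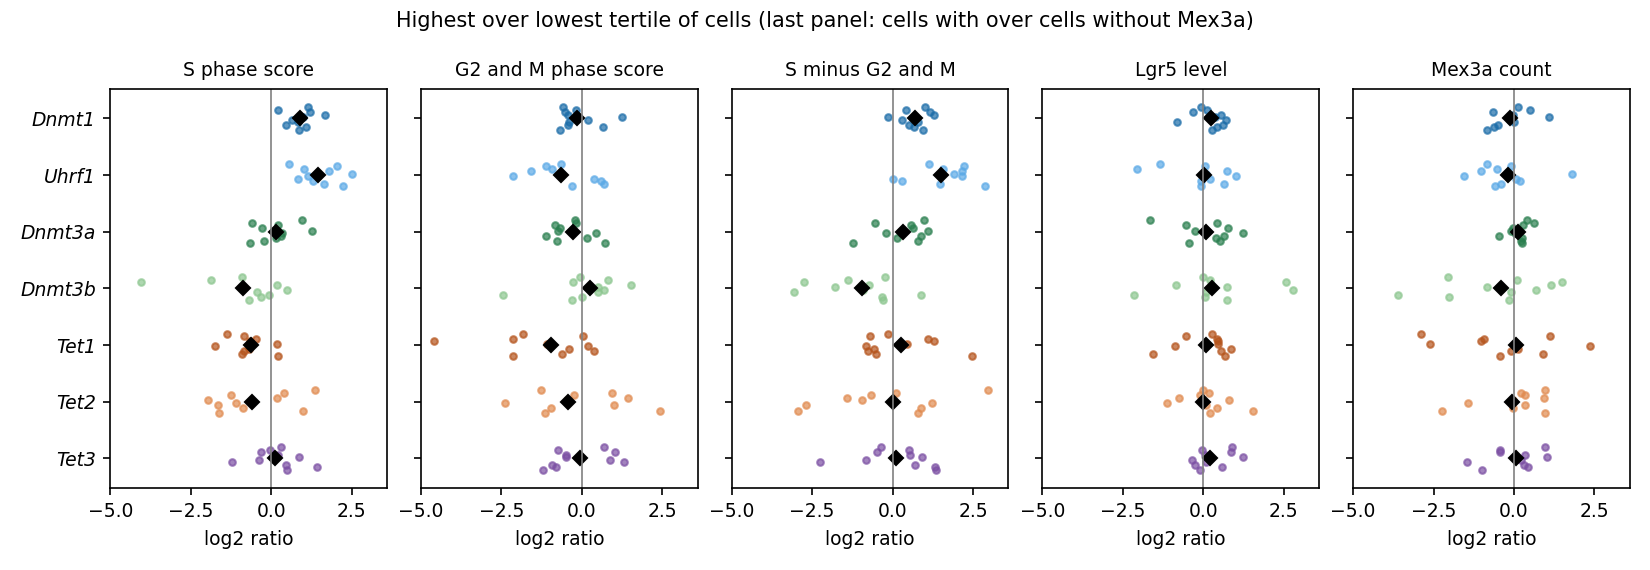
Log2 ratio of each gene, highest over lowest tertile of the cells (last panel, cells with over cells without a Mex3a count). Coloured points are the 10 library sets and black diamonds all cells. For Uhrf1 and Dnmt1 all 10 points lie above 0 in the S phase panel, at 0.20 or more, and the diamonds of the Lgr5 and Mex3a panels lie between -0.40 and 0.27.

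The Lgr5 level within the sorted cells, a measure of the marker that defined the sort, separated none of the 7 genes by 1.5-fold in either direction, where 8.45% of all genes were higher and 4.9% lower. The log2 ratios of highest over lowest tertile ran from -0.02 for Tet2 to 0.27 for Dnmt3b. Dnmt1 had 130.3 CPM in the highest tertile of Lgr5 and 110.9 CPM in the lowest, a log2 ratio of 0.23 with an SD over sets of 0.47, and Uhrf1 had 74.8 CPM in the highest and 74.5 CPM in the lowest.

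Mex3a, which encodes an RNA-binding protein, had a count in 47 cells, or 12.4% of those kept, and these were set against the cells without one. That share lies below the median of 13.9% for the 18 markers of other cell types, so a Mex3a count is not read here as expression by that cell, and the split may not separate cells that express it. None of the 7 genes reached 1.5-fold, where 4.81% of all genes were higher and 11.8% lower. Dnmt1 had 110.2 CPM in cells with Mex3a and 120.6 CPM in cells without, a log2 ratio of -0.13 (-0.37 to 0.10) with an SD over sets of 0.59. Uhrf1 had 64.3 CPM in cells with Mex3a and 73.7 CPM in cells without, a log2 ratio of -0.19 (-0.52 to 0.11) with an SD over sets of 0.90. Dnmt3b had 16.4 CPM in cells with Mex3a, from 25 counts, and 22.1 CPM in cells without, a log2 ratio of -0.40 (-1.09 to 0.17). It passed 1.5-fold lower without library set 7 (-0.72) or set 8 (-0.75). Dnmt3a (0.12), Tet1 (0.08), Tet3 (0.06) and Tet2 (-0.07) lay near 0. With 2 to 7 Mex3a cells in a set, the SD over sets was 0.30 for Dnmt3a and ran from 0.59 (Dnmt1) to 1.62 (Tet1) for the others. For genes other than Dnmt3a, even a 1.5-fold difference in 1 set could not be told from this spread. That SD is not the error of the ratio over all cells. That ratio's 95% interval stayed within 1.5-fold for Dnmt1, Uhrf1, Dnmt3a (-0.15 to 0.36), Tet1 (-0.38 to 0.49) and Tet3 (-0.24 to 0.33). It reached beyond 1.5-fold lower for Dnmt3b and Tet2 (-0.67 to 0.44). These intervals cover counting error only. The title's slow division of Mex3a cells was not measured here.

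Tet1 and Tet2 varied with the number of different genes found in a cell, a comparison added after seeing the data. Cells were cut into tertiles by genes with a count at equal depth, with medians of 8056 in the highest and 6466 in the lowest tertile and median totals of 32611 counts in the highest and 30487.5 in the lowest. At least 1.5-fold higher were 36.9% of all genes, and 12.7% were lower. Tet1 had 15.7 CPM in the lowest, 22.7 in the middle and 58.9 in the highest tertile, a log2 ratio of 1.90 (1.47 to 2.37) with an SD over sets of 1.09, above 0 in 9 of 10 sets. It was found in 55.9% of the highest and 22.6% of the lowest tertile at equal depth. Tet2 had 16.3 CPM in the lowest, 19.3 in the middle and 32.2 in the highest tertile, a log2 ratio of 0.98 (0.51 to 1.47) with an SD over sets of 1.25, above 0 in 8 of 10.

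Neither gene stood apart from the many genes found in such cells, since Tet1 ranked 3400 and Tet2 5265 of 17212 genes. Markers of other cell types differed between the same tertiles. Endothelial markers summed to 122.4 CPM in the highest tertile (73.97 to 171.7 over sets) and 18.4 CPM in the lowest (9.5 to 43.7), with 4 of 4 above 0, and stromal markers to 54.97 CPM in the highest and 10.3 CPM in the lowest, with 3 of 3. Immune markers summed to 91.4 CPM in the highest tertile, with Cd8a at 0, and 54.3 CPM in the lowest, with Cd79a at 0, with 3 of 4 measured markers above 0. The 12 stem cell markers summed to 2215 CPM in the highest tertile and 2553 CPM in the lowest. The part of these marker differences in the Tet1 and Tet2 levels was not tested. Dnmt1 had 102.3 CPM in the highest tertile and 137.6 CPM in the lowest, a log2 ratio of -0.43, and Dnmt3a had 104.6 CPM in the highest and 81.2 CPM in the lowest, a log2 ratio of 0.37. Dnmt3b was at 0.46 and passed 1.5-fold without library set 2 (0.69), without set 10 (0.65) and with thinning to the 25th percentile total (0.64). Uhrf1 was at -0.26 and Tet3 at 0.00.

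**Figure D5:**
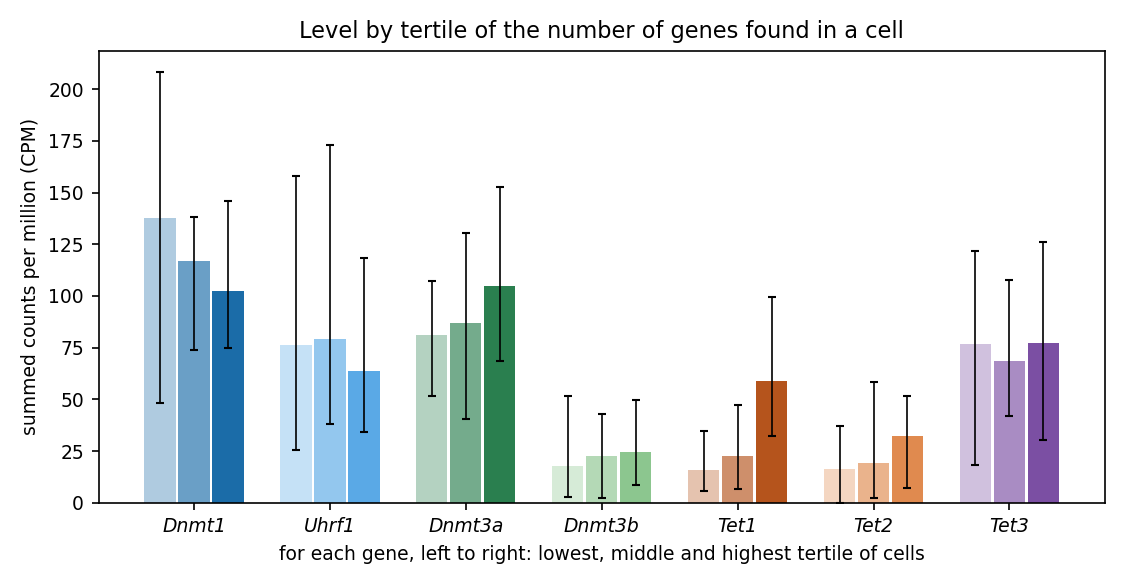
Summed CPM of each gene in the lowest, middle and highest tertile of the number of genes found at equal depth, left to right and light to dark. Bars are all cells of a tertile and whiskers the range over the 10 library sets. Tet1 reaches 58.9 CPM in the highest tertile against 15.7 CPM in the lowest, while Tet3 has a log2 ratio of 0.00.

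Across the cells compared at equal depth, 90% of those kept, the 7 mRNAs were nearly unrelated to each other. The 21 pairs had Pearson r of -0.10 to 0.17, on expected log2(1 + count) at equal depth, and the highest was Dnmt1 with Uhrf1. The cells share a chip, library sets and a limited depth, and at these counts such values are descriptions only. The genes most like Uhrf1 were Pcna, the sliding clamp of replication (r = 0.32), Cdc6, a loader of the replicative helicase (0.30), Atad2 (0.28), Mcm6, a subunit of that helicase (0.28), and Dek (0.26), of which 4 of 5 are on the S phase list. Those most like Dnmt1 were Ung, a uracil-DNA glycosylase (0.26), Hells (0.25), Bdh1 (0.25), Mcm6 (0.24) and the repressor E2f8 (0.24), of which 3 of 5 are on it. For Dnmt3a (Aox2, Stmn3, Tbx21, Rnf17 and Platr28, r of 0.23 to 0.26) and Tet3 (Nhs, Srek1, Erap1, Vcpip1 and 5930430L01Rik, r of 0.20 to 0.24) none of the 5 was on that list. For comparison, 99% of 17211 genes had r of at most 0.15 with Uhrf1 and 0.15 with Dnmt1.

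Another 43 genes of the pathway were listed by role, namely recruitment and chromatin remodelling, readers of methylated CpG, demethylation and repair, and supply of the methyl donor. Of these 39 had a count in at least 10% of cells. By S phase score 3 were at least 1.5-fold higher, against 7.2% of all genes, and 1 lower, against 27.8% of all genes. A ratio above 0 was found for 32 of 39, against 46.5% of all genes. Their median log2 ratio was 0.14, where the median of all genes was -0.05. Ratios above 0 were nearly as frequent by G2 and M score, at 30 of 39 against 45.1% of all genes, with a median of 0.14. With the S minus G2 and M score they were found for 21 of 39, against 55.2% of all genes, with a median of 0.03. The excess above 0 is thus not particular to the S phase score. Hells, a chromatin remodeller needed for full DNA methylation in mice, stood closest to the maintenance pair by S phase score. It had 164.5 CPM in the highest tertile and 88.7 CPM in the lowest, a log2 ratio of 0.89 with an SD over sets of 0.45, above 0 in 10 of 10 sets. Cdca7, the partner of HELLS, had 378.5 CPM in the highest tertile and 317.7 CPM in the lowest, a log2 ratio of 0.25 with an SD over sets of 0.12, above 0 in 10 of 10 sets and under 1.5-fold. Cdca7 was found in 100% of both tertiles.

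Among the demethylation and repair genes 2 of 12 were higher by S phase score, both unevenly over sets. Cxxc5, which encodes a CXXC zinc finger protein, had 32.2 CPM in the highest tertile and 16.9 CPM in the lowest, a log2 ratio of 0.92 with an SD over sets of 1.37. Tdg, the glycosylase that removes oxidized methylcytosine, had 34.8 CPM in the highest tertile and 20.9 CPM in the lowest, a log2 ratio of 0.73 with an SD over sets of 1.82. None of the 8 readers reached 1.5-fold. None of the 8 methyl donor genes was at least 1.5-fold higher. Mthfd1, a folate enzyme, had a log2 ratio of 0.51 with an SD over sets of 0.23, above 0 in 10 of 10 sets, and Ahcy, which clears the product of methylation, 0.52, above 0 in 9 of 10. Dmap1, which encodes a DNMT1-associated protein, was among the lowest at -0.37.

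By S minus G2 and M score Hells was the highest of them, with 170.7 CPM in the highest tertile and 83.99 CPM in the lowest (log2 ratio 1.02), followed by Mthfd1 (0.56), and Dmap1 (-0.90) was among the lowest. By that score 1 was higher and 2 lower, where 10.9% of all genes were higher and 5.47% lower. By G2 and M score 8 were higher, against 8.58% of all genes, and 2 lower, against 32.5%. Gadd45g, of a growth arrest and DNA damage family, led with 23.2 CPM in the highest tertile and 10.1 CPM in the lowest (1.19), above 0 in 10 of 10 sets, followed by the glycosylase gene Smug1 (0.91). Mtr was the lowest (-0.73), followed by Hells (-0.61), which had 98.3 CPM in the highest tertile and 150.1 CPM in the lowest and was below 0 in 10 of 10 sets.

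By Lgr5 level Cxxc5 (0.93) and Zbtb4 (0.40) were the highest and Gadd45b (-1.14) and Tdg (-0.55) the lowest, with 1 gene higher and 1 lower at 1.5-fold, where 8.45% of all genes were higher and 4.9% lower. By Mex3a count Gadd45b had 34.1 CPM in cells with Mex3a and 18.5 CPM in cells without (0.89, SD over sets 1.99), above 0 in 6 of 10 sets. It was the 1 gene past 1.5-fold, where 4.81% of all genes were higher and 11.8% lower. Zbtb4 (-0.38) and Ehmt2 (-0.37) were the lowest. By number of genes 5 were higher, against 36.9% of all genes, and 6 lower, against 12.7%, with Mtr (1.12) among the highest and Gadd45a (-1.06) and Mat2b (-0.81) the lowest.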

How the data were processed

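Per the labels' protocols, 400 sorted Lgr5-high cells were caught on a Fluidigm C1 chip and sequenced as amplified cDNA. The authors deposited 1 table of whole-number counts per gene and cell, not normalized. The submitters' processing notes name GRCm38.p4. Which aligner, counter, annotation release, strand setting and molecular identifiers were used is not given in the sources used here. Columns were matched to samples by title, with 0 left outside.

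Symbols, positions and merged exon lengths came from GENCODE M21 (GRCm38), with a symbol for 33219 of 33496 identifiers, of which 25822 had the same version. Cells under 10000 counts were left out (20 cells, 4491 to 9841 counts), and doublets were not removed. CPM is the summed count over the summed total. Thinning to 19169 counts, the 10th percentile of kept totals, used the exact hypergeometric expectation, with no random draw. Log2 ratios added 0.5 counts to each sum and were called at 1.5-fold, over genes found in 10% or more of kept cells. Genes that form a score or split were left out, except for the number of genes, which includes every gene compared. All cells are 1 sample, so no test was run. Shares have exact Clopper-Pearson and ratios exact binomial intervals at 95%. The ratio step was checked on simulated data. Python 3.11.15, numpy 2.4.6, pandas 2.3.3, scipy 1.17.1 and matplotlib 3.10.9 were used.

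The 7 genes, all lists, the comparisons and the alternatives were chosen with earlier results of these data known, and the comparison by number of genes was added after seeing these values. Named were the 7 genes, the 5 genes most like each of them found in at least 50% of cells, and the 2 highest and 2 lowest related genes in each comparison. Results of 1 related gene are not reported here. Tdg, Cdca7, Mthfd1 by S phase score, and Ahcy were named outside that rule, after their values were seen. Alternatives varied the depth limit, scaling, thinning, tertiles against a split at the median, tertiles within or across library sets, possible doublets, the filter on detection, the mean CPM per cell, and each library set left out.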

Additional observations from a re-analysis of the deposited data

Results flagged for a closer look

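In 4 of 56 groups of 10 library sets, 1 set lay farther from the others than Dixon's 95% critical value of 0.466 allows, and chance alone flags about 1 in 20 groups. Uhrf1 by Mex3a count had a log2 ratio of 1.80 in library set 6, where the next highest set had 0.19. Dnmt3b by S phase score had -4.06 in set 8, where the next lowest had -1.87. Dnmt3b by G2 and M phase score had -2.44 in set 3, where the next lowest had -0.29. Tet1 by G2 and M phase score had -4.59 in set 7, where the next lowest had -2.15. In the highest tertile of that score the lowest set of Tet1 had 0 CPM, and the size of a ratio from 0 depends on the 0.5 counts added. Each of the 4 rests on few cells of 1 set.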

How the results depend on the processing

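No paired analysis was possible because all cells belong to 1 group, so no pair of groups shares replicate numbers. Tertiles were cut within library sets, and the ratios per set given above compare cells of the same set. By S phase score, 2 of the 7 genes were at least 1.5-fold higher under all 17 alternatives, with log2 ratios of 0.71 to 0.99 for Dnmt1 and 1.19 to 1.66 for Uhrf1. The number lower, 3 as reported, was 1 without the 5% of cells with the most genes, 0 with tertiles over all cells together, and 1 each with a median split, with thinning to the 25th percentile total and without the tertile of cells with the most genes. With each library set left out the number was 1 to 3. Without the tertile of cells with the most genes, Tet2 by S phase score was 0.15 and Tet1 by G2 and M phase score 0.45, both reversed. By G2 and M score the number lower, 2 as reported, was 1 with mean CPM per cell, 1 with a median split, 1 without the tertile with the most genes, and 1 to 2 with a set left out. By S minus G2 and M score a median split gave 1 higher (2 reported) and 0 lower (1 reported), with Dnmt1 at 0.45 and Dnmt3b at -0.47. By Mex3a count the number lower, 0 as reported, was 1 with mean CPM per cell (Dnmt3b, -0.69), 1 with at least 2 Mex3a counts (Uhrf1, -0.72, from 18 cells), and 0 to 1 with a set left out. By Lgr5 level it was 0 in each direction under all 17 alternatives. Apart from the construction of each alternative, the cause was not tested.

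Counts over all genes moved more than 1.5 times in some settings. By S phase score the 1237 higher became 762 with a median split and 4505 with no filter on detection, and the 4776 lower became 13227 with no filter and 1990 without the tertile with the most genes. By G2 and M score the 1472 higher became 704 with a median split and 4098 with no filter, and the 5583 lower became 15016 with no filter and 2662 without that tertile. By S minus G2 and M score the 1864 higher became 1233 with a median split and 7648 with no filter, and the 936 lower became 491, 5443 and, without that tertile, 1783. By Lgr5 level the 1455 higher became 6831 with no filter, and the 843 lower became 413 with a median split, 5468 with no filter and 1425 without that tertile. By Mex3a count the 827 higher became 7108 with no filter, 1876 with 2 Mex3a counts and 1735 without that tertile, and the 2027 lower became 6201 with no filter. By number of genes the 6356 higher became 17174 and the 2186 lower 4310 with no filter, and 708 lower with a median split. Scaled by genes with a mean count under 10, Dnmt1 had 140.5 CPM. With 2 counts required, the shares of cells were 70.5% for Dnmt1, 42.4% for Uhrf1, 61.3% for Dnmt3a, 12.4% for Dnmt3b, 23.4% for Tet1, 11.8% for Tet2 and 48.4% for Tet3. Depth limits Dnmt3b, Tet1 and Tet2 most, with mean counts of 0.684, 1.05 and 0.711 per cell.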
